A study of Mus musculus with 6 samples.

Results

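The genes of amino acid breakdown and urea synthesis were followed in mouse liver in a single comparison, 3 liver samples with an Nfkbiz-carrying AAV8 vector against 3 with the luciferase control vector. The set was a named list of 43 genes, and each gene was read by its brightest probe set among those with exactly 1 gene symbol in the platform annotation, with its other probe sets given beside it. That found 39 of the 43, all of which passed the filter on low values and stood among the 13312 genes tested. Gls2, Sds, Sdsl and Amt are not analysed here.

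Both groups were C57BL/6 mice given AAV8, a liver-tropic adeno-associated virus, by intravenous injection. After 4 weeks both groups were put on CDAHFD, the high-fat diet that lacks choline and takes its nitrogen from defined amino acids, for another 4 weeks, which the labels call a model of nonalcoholic fatty liver disease (NAFLD). No sample on a normal diet or without a vector is analysed here. The transgenes were luciferase in the AAV8-luciferase group and nfkbiz, the gene of the nuclear IκB protein IκBζ, in the AAV8-Nfkbiz group. The sources used here do not give age, sex, vector dose, the promoter driving the transgenes, the time of day or the feeding state. Livers were perfused with PBS before they were taken. Each liver sample was read on 1 array (n = 3 per group). Nothing in the labels ties each array to a separate animal, so p-values measure only the spread between these samples, which may be technical. Values are MAS5 intensities on a linear scale, and a difference is the mean log2 intensity of the AAV8-Nfkbiz group less that of the control group, with limma's standard error (SE).

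Hepatocytes are the main site where surplus amino acids are taken apart. Aminotransferases and dehydratases remove the nitrogen, the urea cycle turns it into urea, and the carbon skeletons feed gluconeogenesis, ketone bodies or oxidation. Many of these enzymes are most abundant near the portal vein, and several, with tyrosine aminotransferase the classical case, are induced by glucocorticoids, glucagon and fasting.

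Tat, the gene of tyrosine aminotransferase, was the 1 of the 39 genes that passed an adjusted p of 0.05, and it fell. That threshold was passed downward by 0.158% and upward by 0.0676% of all genes tested, 0.225% in all. At an unadjusted p below 0.05, 4 of the 39 were lower (Tat, Prodh, Gpt and Uroc1), where 7.00% of all genes were, and 1 was higher (Csad), where 5.03% were. The median log2 difference of the 39 was -0.07 against -0.02 over all genes, and 23 of the 39 differences were negative, 59.0% against 52.2% of all genes. For 36 of the 39 the 95% interval of the difference lay within a 2-fold change either way (73.2% of all genes), the others being Tat, Csad and Ass1. The median SE was 0.16 for the 39 and 0.20 over all genes, and these shares are not matched for brightness. The count of lower genes was 2 after median centring, without an intensity trend in the variance prior, without the second luciferase array and without the third Nfkbiz array, and 8 after quantile and 7 after cyclic loess normalization.

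To show the regions in front of the genes that were lower and have an entry in the promoter table, the 250 bases before the start of each are printed from the RefSeq promoter table (build GRCm38.p6), 5′ to 3′ on the strand of the gene. Capitals mark CACCC or its reverse complement GGGTG, the box read by Krüppel-like factors, searched because Klf15 was among the genes that fell.
Tat (chr8:109990186-109990435, plus strand): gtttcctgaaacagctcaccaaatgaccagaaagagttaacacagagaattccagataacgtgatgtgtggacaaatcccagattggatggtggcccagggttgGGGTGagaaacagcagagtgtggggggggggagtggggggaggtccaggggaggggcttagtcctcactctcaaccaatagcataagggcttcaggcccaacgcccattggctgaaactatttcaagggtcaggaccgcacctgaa
Prodh (chr16:18089191-18089440, minus strand): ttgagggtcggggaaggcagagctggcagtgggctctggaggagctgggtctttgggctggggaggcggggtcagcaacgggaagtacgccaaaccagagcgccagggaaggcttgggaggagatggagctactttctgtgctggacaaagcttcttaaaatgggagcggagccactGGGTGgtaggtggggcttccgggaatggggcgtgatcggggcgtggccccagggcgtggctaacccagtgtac
Uroc1 (chr6:90333039-90333288, plus strand): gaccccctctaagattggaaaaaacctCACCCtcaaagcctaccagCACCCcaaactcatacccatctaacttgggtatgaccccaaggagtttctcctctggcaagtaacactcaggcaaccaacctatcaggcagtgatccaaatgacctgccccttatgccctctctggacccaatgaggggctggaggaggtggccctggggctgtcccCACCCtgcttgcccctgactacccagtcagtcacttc
Tat and Prodh held 1 such box each and Uroc1 held 3. Csad, which was higher, had 2 starts in the promoter table, whose windows held 0 and 1. The other listed genes there held from 0 (such as Hpd) to 6 (Fah). The box was in 65.7% of the 35 promoters of 32 listed genes that the table held and in 52.0% of all 32851 promoters, so it is common in any promoter of this length. The glucocorticoid receptor half-site TGTTCT, which is only a part of the full element, was in 8.57% of the 35 against 16.1% of all. The E-box CACGTG was in 5.71% against 6.02%, and the TATA box TATAAA in 14.3% against 12.4%. The forkhead element TGTTTAC and the cAMP response element TGACGTCA were in 0 of the 35 against 3.17% and 1.55%. All were searched on both strands. None of these 5 was found in the Tat, Prodh or Uroc1 window, which says only that those letters are not in it. The enhancers through which glucocorticoids and cAMP act on Tat are known to lie further upstream. A match is a description of letters, and binding was not measured.

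The arrays differed in how they read the whole set. The first luciferase array and the third Nfkbiz array were low across the list. The median deviation of the 39 genes from their own means over the 6 arrays was -0.22 (log2) on the first luciferase array, 0.12 on the second and 0.18 on the third. With Nfkbiz it was 0.05, 0.08 and -0.25. The lowest reading of a gene fell on the third Nfkbiz array for 18 of the 39 and on the first luciferase array for 16. Over all genes these 2 arrays held the lowest reading for 11.8% and 13.7%. The list sits on bright probe sets, 33 of the 39 being in the brightest 5% of the array, which describes the probe sets and not transcript abundance. The 1404 genes in that brightness range had median deviations of -0.12 on the first luciferase array and -0.03 on the third Nfkbiz array, and the part of this array-wide shift in the differences below was not tested beyond the normalizations. On the second principal component over all genes, the third luciferase array lay far from the rest, at -45.1 against 3.11 to 21.1 for the others. Without it the count of adjusted calls in the list was 2 (Tat and Ass1), the count at an unadjusted p below 0.05 stayed at 4 lower and 1 higher, with Ass1 in and Uroc1 out, and the median difference was 0.0038.

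**Figure D1:**
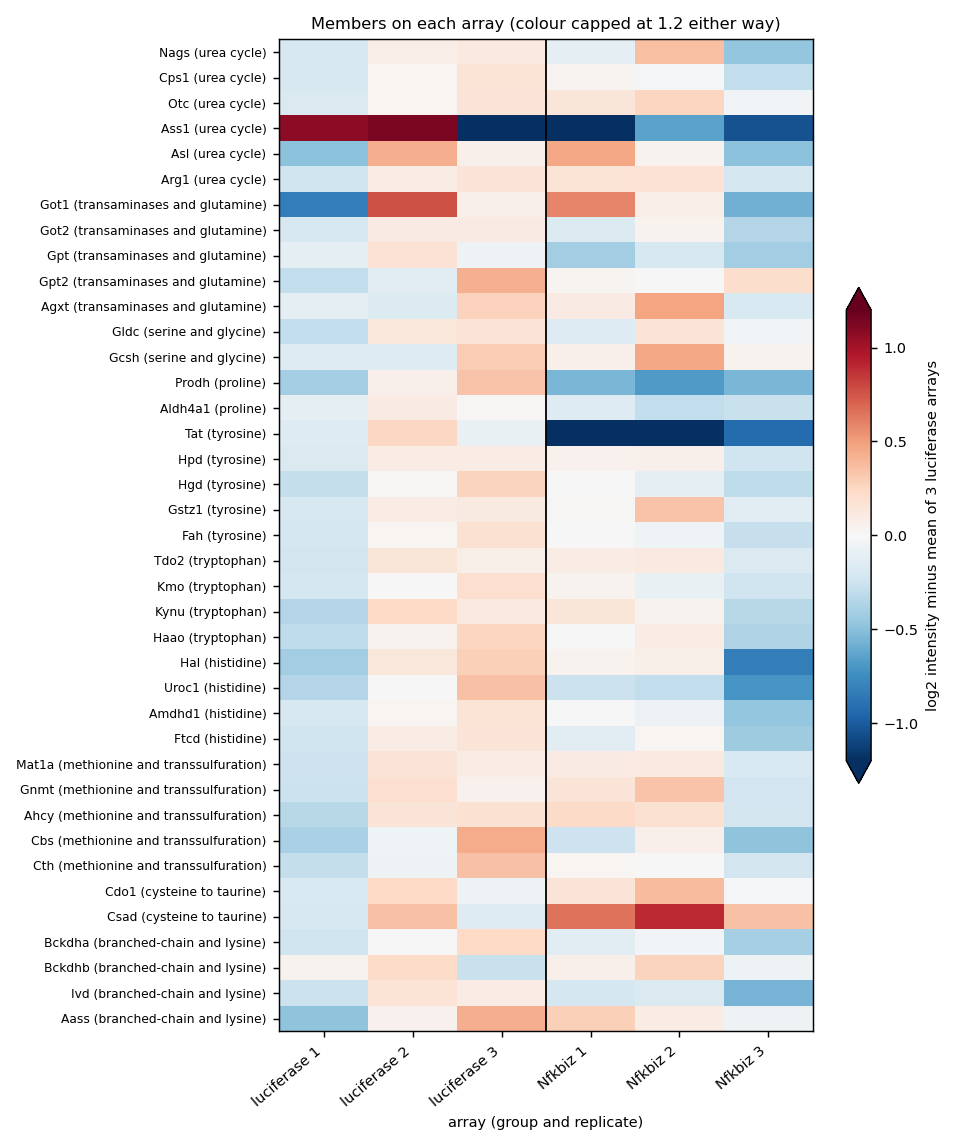
Log2 intensity of each of the 39 genes on each of the 6 arrays, minus the mean of that gene over the 3 luciferase arrays (colour, capped at 1.2 either way); the black line separates the groups. The row of Tat is blue on all 3 Nfkbiz arrays. The columns of the first luciferase array and the third Nfkbiz array are both mostly blue, and Ass1 swings between the luciferase arrays.

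Nfkbiz itself checked the labels. Probe set 1448728_a_at read 221, 230 and 180 in the control group and 4424, 4073 and 2006 in the Nfkbiz group. The groups did not overlap, with a log2 difference of 3.98 ± 0.27 (limma adjusted p = 0.0009 over all probe sets). The other probe sets of the gene, 1417483_at and 1457404_at, had log2 differences of 0.30 ± 0.19 and -0.89 ± 0.54 (SE) and did not pass. The brightest of the gene is 1417483_at, by which the rule used for the listed genes would read Nfkbiz. Its groups overlapped (limma adjusted p = 0.603 over all probe sets). The brightest probe set of a gene can thus miss a change that another probe set of that gene reads.

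Hepatocyte markers gave the identity of the tissue. Of the 10 listed (Alb, Ttr, Apoa1, Apob, Tf, Fgb, Hnf4a, Serpina1a, Cyp2e1 and Ahsg), 8 were read and 0 were at 0. Their summed intensity ran from 288691 to 336903 in the luciferase and from 293878 to 341182 in the Nfkbiz group, and their median log2 difference was 0.04, with 1 of 8, the transcription factor gene Hnf4a, at an unadjusted p below 0.05. In whole liver, fewer cells of a type and less RNA per cell cannot be told apart. Kupffer cell and macrophage markers had summed intensities of 20392 to 26580 against 26512 to 36285, with 6 of 8 higher at an unadjusted p below 0.05, 0 of 8 past the adjusted threshold and 0 at 0, and their part in the differences of the enzymes was not tested. Stellate cell markers summed to 11152 to 20601 against 10862 to 15555, with 3 of 6 lower at an unadjusted p below 0.05 and 0 at 0. T and NK cell markers summed to 623 to 670 against 798 to 1321, with 1 of 5 tested past the adjusted threshold upward and 0 at 0. Neutrophil markers summed to 885 to 1347 against 1069 to 2646, with 2 of 3 higher at an unadjusted p below 0.05, and B cell markers to 175 to 278 against 275 to 499, with 1 of 3 higher. Sinusoidal endothelium markers summed to 3889 to 8546 against 7340 to 9276, with 1 of 6 higher and all 6 differences positive. Cholangiocyte markers summed to 434 to 693 against 324 to 598, with 1 of 3 tested lower. Over all genes, 7.00% were lower and 5.03% higher at an unadjusted p below 0.05. In the hepatocyte, stellate cell, neutrophil, B cell, endothelium and cholangiocyte lists, 0 markers passed the adjusted threshold. None of the markers read in these lists was at 0. The part of these cell types was not tested either.

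Tyrosine breakdown opens with Tat, whose enzyme moves the amino group of tyrosine to an oxo acid and sets the pace of the pathway. Tat read 17883, 23787 and 18712 on the control arrays, against 8155, 8069 and 10521 with Nfkbiz. Every Nfkbiz array was below every luciferase array. The group means were 20127 ± 3196 and 8915 ± 1391 (SD, n = 3), a log2 difference of -1.17 ± 0.16 (SE, 95% interval -1.52 to -0.83, limma adjusted p = 0.0218 over all genes), which is 2.26-fold lower. In the fit over all 27022 probe sets, of which 0.0703% passed, its 1 probe set, 1451557_at, had a limma adjusted p of 0.0289. The size was steadier than the call. The adjusted p in limma was 0.0811 without the second luciferase array (difference -1.05), 0.0958 without the first Nfkbiz array (-1.12), 0.101 without the second (-1.11), 0.0671 after median centring (-1.14) and 0.312 without the intensity trend in the variance prior (-1.17), where 0 of all genes passed in limma and 1350 had an unadjusted p below 0.05.

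The 4 enzymes that act after Tat did not follow it past the threshold. Hpd, which makes homogentisate, had a log2 difference of -0.04 ± 0.14, and Hgd, which opens its ring, one of -0.14 ± 0.16 on its brightest probe set. Gstz1, the maleylacetoacetate isomerase, stood at 0.08 ± 0.15 and Fah, which splits fumarylacetoacetate, at -0.11 ± 0.14. Over these 4 the 95% intervals on the brightest probe set reached down to -0.49 and up to 0.41 (log2). A second, dim probe set of Hgd, 1458049_at, singled out after its values were seen, read 214, 159 and 86.9 on the luciferase and 21.5, 81.9 and 18.3 on the Nfkbiz arrays. The groups did not overlap there, although the lowest luciferase and the highest Nfkbiz reading were close, and its difference of -2.17 ± 0.61 did not pass (limma adjusted p = 0.274 over all probe sets).

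**Figure D2:**
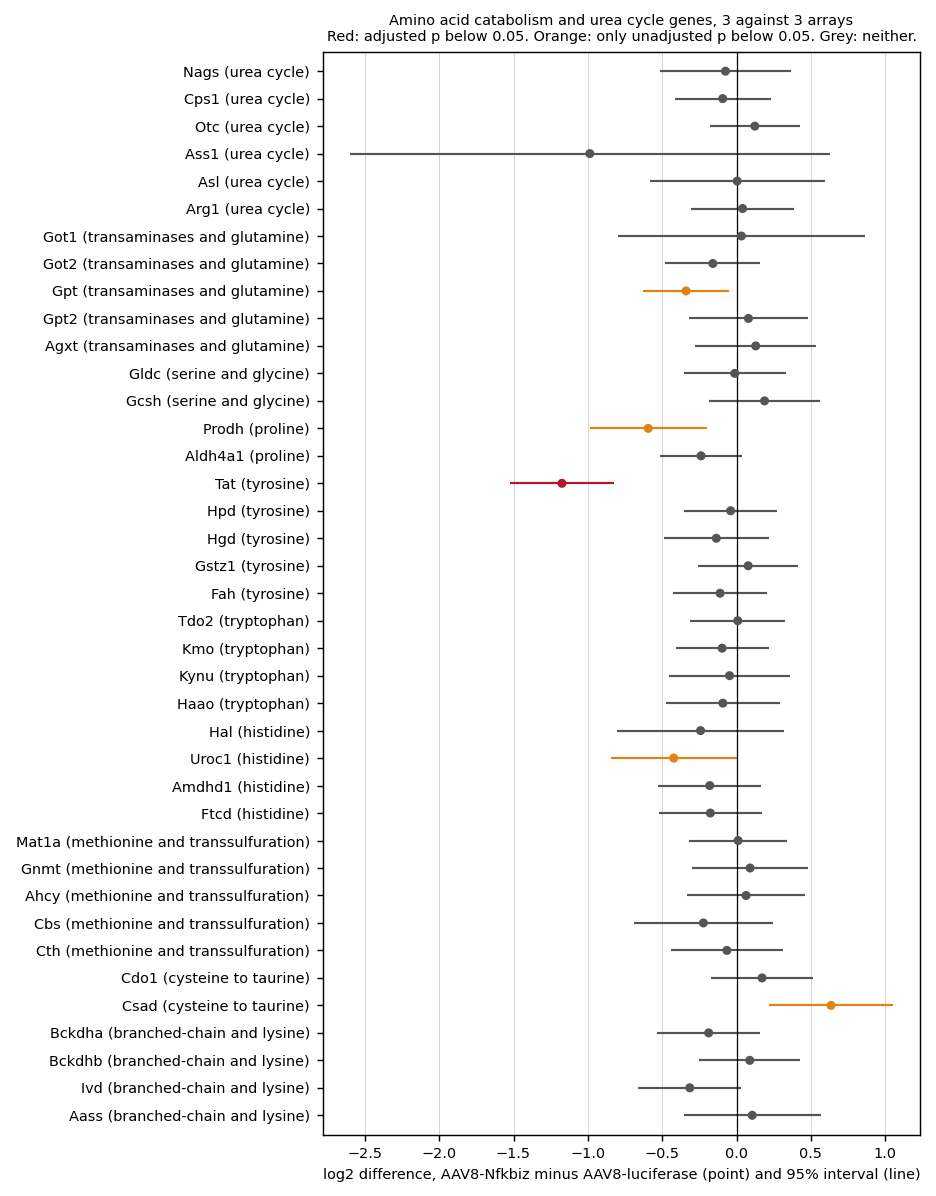
Log2 difference (point) and 95% interval (line) of each of the 39 genes, grouped by pathway, AAV8-Nfkbiz minus AAV8-luciferase, 3 arrays each, from the fit over all genes. Tat at -1.17 is the only one past the adjusted threshold; Prodh, Gpt and Uroc1 lie below 0 and Csad above it at an unadjusted p below 0.05, and most others are close to 0.

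Both genes of proline breakdown were lower on every Nfkbiz array without passing the adjusted threshold. Prodh, proline dehydrogenase of the inner mitochondrial membrane, read 5112, 7092 and 8596 on the luciferase and 4641, 4225 and 4621 on the Nfkbiz arrays. The luciferase arrays were spread widely and the Nfkbiz arrays lay close together below them. The means were 6933 ± 1747 and 4496 ± 235 (SD, n = 3), a difference of -0.59 ± 0.18 (limma adjusted p = 0.23). Aldh4a1, which carries the product on to glutamate, read 1877, 2169 and 2039 against 1817, 1651 and 1682. Its groups did not overlap either, and its difference was -0.24 ± 0.12 with a limma adjusted p of 0.475. In all 5 of the 39 genes had groups that did not overlap (Tat, Prodh, Aldh4a1 and Gpt lower, Csad higher). This is a smaller share than the 18.0% of all genes for which it held. The share without overlap downward, 4 of the 39, was near that of all genes, 1333 of 13312. The separation of Prodh and Aldh4a1 is therefore a description. The count in either direction was 15 without the first luciferase array, 8 without the third, 12 after quantile normalization, 9 after cyclic loess and 2 after median centring.

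Of the 5 aminotransferase genes other than Tat, 1 was lower at an unadjusted p below 0.05, Gpt. Gpt, the alanine aminotransferase gene, read 11417, 13893 and 11806 on the luciferase and 9255, 10801 and 9236 on the Nfkbiz arrays. The highest Nfkbiz array was just under the lowest luciferase array. The means were 12372 ± 1332 and 9764 ± 898 (SD, n = 3), and the difference of -0.34 ± 0.13 did not pass (limma adjusted p = 0.337). Its second probe set, 1453216_at, had -0.38 ± 0.18, also without overlap. The brighter one, 1426502_s_at, carries the suffix by which the array maker marks probe sets that can match more than 1 transcript. The brightest probe sets of Uroc1, Cbs and Gpt2 carry the same suffix. Gpt2, the mitochondrial isoenzyme, had 4 probe sets with differences from -0.25 to 0.08. Got2, the mitochondrial aspartate aminotransferase, stood at -0.16 ± 0.14 on its brightest probe set. Got1, its cytosolic partner, stood at 0.03 ± 0.37, with single luciferase arrays from 4198 to 12697. Agxt, which detoxifies glyoxylate with alanine, read 6550, 6349 and 8629 against 7585, 9841 and 6278. Its groups overlapped, at 7176 ± 1262 against 7901 ± 1802 (SD, n = 3) and a difference of 0.13 ± 0.18 (limma adjusted p = 0.823).

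All 4 genes of histidine breakdown had negative differences, where 52.2% of all genes had, with none past the adjusted threshold. Uroc1, urocanate hydratase of the second step, read 7117, 9081 and 11598 on the luciferase and 7594, 7384 and 5551 on the Nfkbiz arrays on its brightest probe set, 1451565_s_at. The first luciferase array lay among the Nfkbiz arrays there. The means were 9265 ± 2246 and 6843 ± 1124 (SD, n = 3), a difference of -0.42 ± 0.19 (limma adjusted p = 0.415). The other probe set, 1425003_at, read 1927, 2759 and 2834 against 1562, 1555 and 1162, with no overlap. Its difference was -0.81 ± 0.19, larger than on the brighter probe set, and did not pass either (limma adjusted p = 0.199 over all probe sets). Hal, which makes urocanate, stood at -0.24 ± 0.25, Amdhd1, the imidazolonepropionase of the next step, at -0.18 ± 0.16, and Ftcd, which hands the formimino group to folate, at -0.18 ± 0.16. The third Nfkbiz array, low across the list, weighed most in Hal, Amdhd1 and Ftcd. There they lay -0.83, -0.46 and -0.43 (log2) from their luciferase means. On the first and second Nfkbiz arrays they lay between -0.12 and 0.07. Uroc1 lay at -0.26, -0.30 and -0.71 on the Nfkbiz arrays.

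**Figure D3:**
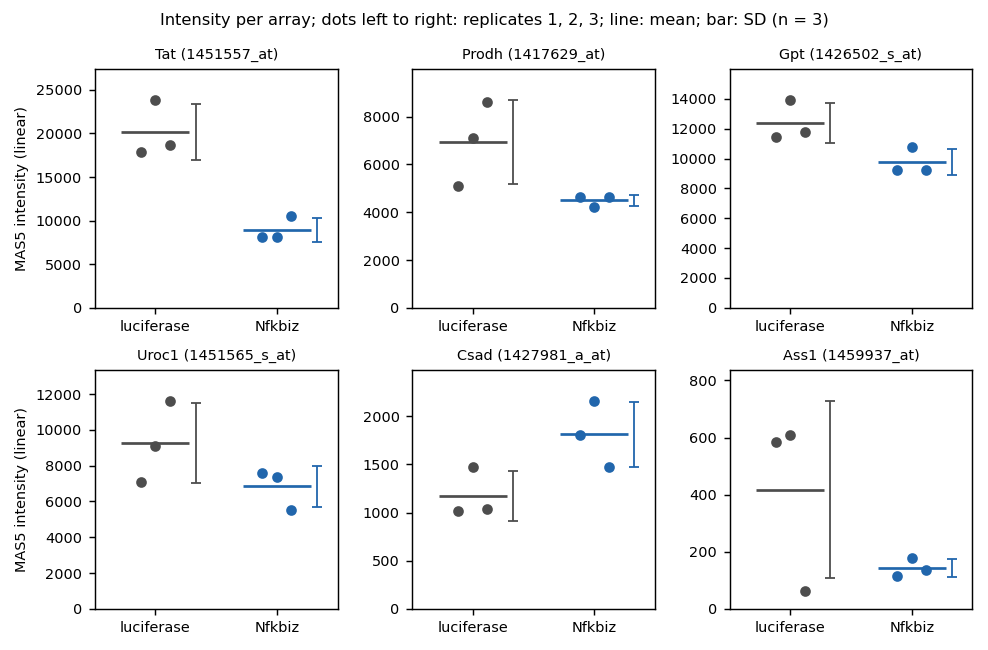
MAS5 intensity (linear axes from 0) of 6 genes on each array, dots from left to right being replicates 1 to 3, with the group mean (line) and SD (bar, n = 3). Tat, Prodh and Gpt are separated downward and Csad upward, Uroc1 overlaps through the first luciferase array, and Ass1 has 1 luciferase array far below the other 2.

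No gene of the urea cycle passed either threshold, and 5 of the 6 differences lay close to 0. Cps1, carbamoyl phosphate synthetase, through which ammonia enters the cycle, read 31919, 36969 and 40742 on the luciferase and 37218, 35965 and 29572 on the Nfkbiz arrays. The groups overlapped throughout, at 36543 ± 4427 and 34252 ± 4101 (SD, n = 3), with a difference of -0.09 ± 0.14 (95% interval -0.42 to 0.23, limma adjusted p = 0.841). Nags, which makes the allosteric activator of Cps1, stood at -0.08 ± 0.20, Otc, which makes citrulline, at 0.12 ± 0.14, Asl, which releases arginine, at 0.0036 ± 0.26, and Arg1, which splits off urea, at 0.04 ± 0.16. None of the 5 intervals reached a 2-fold change.

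Ass1, argininosuccinate synthase, was the exception in spread. Its 1 probe set, 1459937_at, was the dimmest of the 39 and read 584, 608 and 60.5 on the luciferase and 115, 178 and 135 on the Nfkbiz arrays. The first and second luciferase arrays were high and the third was below every Nfkbiz array. With all arrays the means were 417 ± 309 and 143 ± 32.1 (SD, n = 3) and the difference was -0.99 ± 0.73 (95% interval -2.60 to 0.63, limma adjusted p = 0.622). Without the third luciferase array it was -2.09 ± 0.24 and passed (limma adjusted p = 0.0147), so 1 array decides the call. Which part of the transcript this probe set reads is not given in the sources used here.

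Of the genes that lead from cysteine to taurine, Csad was the only one of the 39 higher at an unadjusted p below 0.05. Csad, cysteine sulfinic acid decarboxylase, which commits cysteine carbon to hypotaurine and taurine, read 1011, 1469 and 1037 on the luciferase and 1810, 2155 and 1478 on the Nfkbiz arrays. The second luciferase array almost reached the third Nfkbiz array, and the groups did not overlap. The means were 1172 ± 257 and 1814 ± 339 (SD, n = 3), a difference of 0.63 ± 0.19 that did not pass (limma adjusted p = 0.229). It stayed positive under all 17 alternatives, from 0.50 to 0.81, with limma adjusted p-values from 0.163 to 0.534. Cdo1, the dioxygenase that makes its substrate, stood at 0.17 ± 0.15.

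The methionine cycle and transsulfuration, which this choline-deficient diet bears on through methyl group supply, showed no gene past either threshold. Mat1a, which makes S-adenosylmethionine, stood at 0.0099 ± 0.15, Gnmt, the glycine methyltransferase that uses it up, at 0.09 ± 0.17, and Ahcy, which removes S-adenosylhomocysteine, at 0.06 ± 0.18. Cbs, which joins homocysteine to serine, read 3251, 4101 and 5780 against 3576, 4447 and 3043. Its groups overlapped, at 4377 ± 1287 and 3689 ± 709 (SD, n = 3), with a difference of -0.22 ± 0.21 (limma adjusted p = 0.721). Cth, which releases cysteine, stood at -0.07 ± 0.17.

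No gene of tryptophan breakdown passed either threshold. Tdo2, the dioxygenase of the entry step, stood at 0.0075 ± 0.14 on its brightest probe set and at -0.21 and -0.12 on the other 2. Kmo, which hydroxylates kynurenine, had the smallest p of the group and read 6653, 7721 and 8845 against 7921, 7211 and 6495. The groups overlapped, at 7740 ± 1096 and 7209 ± 713 (SD, n = 3), with a difference of -0.10 ± 0.14 (limma adjusted p = 0.825). Kynu, the kynureninase, stood at -0.05 ± 0.18 and Haao, which makes the quinolinate precursor, at -0.09 ± 0.17. Over the 4 genes the 95% intervals reached down to -0.48 and up to 0.36 (log2).

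Of the glycine cleavage system, Gldc, the decarboxylase, stood at -0.01 ± 0.16. Gcsh, the lipoyl carrier protein, read 6712, 6713 and 9234 against 7793, 10271 and 7683. The third luciferase array lay among the Nfkbiz arrays, at means of 7553 ± 1456 and 8582 ± 1463 (SD, n = 3), and the difference was 0.19 ± 0.17 (limma adjusted p = 0.70).

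Branched-chain and lysine genes did not pass. Ivd, isovaleryl-CoA dehydrogenase of leucine breakdown, read 3440, 4606 and 4355 on the luciferase and 3532, 3639 and 2790 on the Nfkbiz arrays. The first luciferase array lay between the Nfkbiz arrays, at means of 4134 ± 614 and 3320 ± 463 (SD, n = 3), with a difference of -0.31 ± 0.16 (limma adjusted p = 0.456). Its second probe set, 1449001_at, gave -0.42 ± 0.17. The subunits of the branched-chain oxo acid dehydrogenase had opposite signs, Bckdha at -0.19 ± 0.16 and Bckdhb at 0.09 ± 0.15, and Aass, which opens lysine breakdown, stood at 0.10 ± 0.21.

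**Figure D4:**
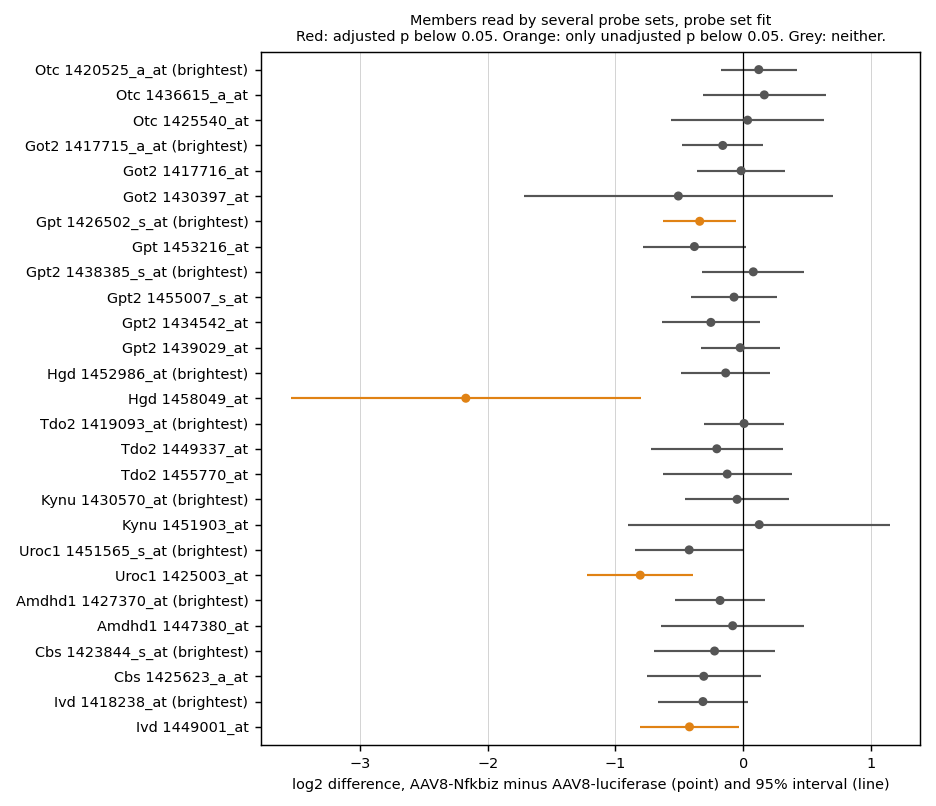
Log2 difference (point) and 95% interval (line) of every probe set past the filter for the 11 genes with several, from the fit over all probe sets. The probe sets of 8 of the 11 genes share a sign, among them Gpt, Uroc1, Hgd and Ivd, all negative, and the widest intervals belong to dim probe sets.

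Read by all probe sets, the list gave 55 past the filter and 1 below it. Of the 55, 36 had a negative difference, 1 passed the adjusted threshold (Tat), 6 were lower at an unadjusted p below 0.05, where 6.47% of all probe sets were, and 1 was higher, where 4.14% were. The 6 were those of Tat and Prodh, the brighter of Gpt, and the dimmer of Uroc1, Hgd and Ivd. For 8 of the 11 genes with several probe sets all had the same sign, and for 3 (Gpt2, Tdo2 and Kynu) the signs were mixed.

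Among the carriers that bring amino acids into cells and mitochondria 2 fell, Slc1a2 and Slc38a2. Of 16 listed, 15 were tested and 2 passed the adjusted threshold downward (0.158% of all genes). At an unadjusted p below 0.05, 7 were lower and 0 higher (7.00% and 5.03% of all genes), and the median difference was -0.32 against -0.02 over all genes. The difference from the enzymes was not tested. This list was chosen with earlier results of these data known, so its counts are not independent evidence. Slc38a2, a sodium-coupled carrier of small neutral amino acids, read 4412, 3868 and 5070 on the luciferase and 2245, 1772 and 2493 on the Nfkbiz arrays. The groups were far apart, with a difference of -1.04 ± 0.16 (limma adjusted p = 0.0373). Slc1a2, a glutamate carrier, read 1657, 1968 and 1571 against 827, 570 and 859. All Nfkbiz arrays were again below all luciferase arrays, with a difference of -1.22 ± 0.18 (limma adjusted p = 0.0316). Slc7a2, a carrier of cationic amino acids such as arginine, stood at -1.05 ± 0.23 (limma adjusted p = 0.133) and Slc16a10, a carrier of aromatic amino acids, at -0.50 ± 0.13 (limma adjusted p = 0.183), neither of them past the threshold. The mitochondrial carriers of the urea cycle, Slc25a15 for ornithine and Slc25a13 for aspartate, stood at -0.12 ± 0.15 and -0.21 ± 0.15 and did not pass. Neither call held with any 1 array left out, where the limma adjusted p ran from 0.0518 to 0.122 for Slc1a2 (differences -1.33 to -1.03) and from 0.0518 to 0.118 for Slc38a2 (-1.15 to -0.90). With the probe sets of a gene averaged, the differences shrank to -0.68 (limma adjusted p = 0.186) and -0.58 (limma adjusted p = 0.395). The Slc38a2 call was also lost after median centring (limma adjusted p = 0.0741) and with the most variable probe set (limma adjusted p = 0.511), and both were lost without the variance trend.

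Among 13 regulators of amino acid enzymes, 3 fell and 0 rose past the adjusted threshold (0.158% and 0.0676% of all genes). At an unadjusted p below 0.05, 6 were lower and 1 higher (7.00% and 5.03% of all genes), with a median of -0.30 against -0.02 over all genes. The list was drawn up with some of these falls known and is not independent evidence. Klf15, a Krüppel-like factor known to control amino acid-degrading enzymes in liver, read 3224, 3915 and 4998 on the luciferase and 1194, 1965 and 1324 on the Nfkbiz arrays (-1.45 ± 0.21, limma adjusted p = 0.0316). Foxo3, a forkhead factor, stood at -1.53 ± 0.21 and Ppargc1a, a coactivator of fasting metabolism, at -1.24 ± 0.20. The glucocorticoid receptor gene Nr3c1 and the glucagon receptor gene Gcgr, through which Tat is classically induced, stood at -0.10 ± 0.15 and -0.21 ± 0.12 and did not pass. The others lower at an unadjusted p below 0.05 were Foxo1, Cebpb and Hnf4a, none past the adjusted threshold. Foxo1 stood at -0.70 ± 0.18 (limma adjusted p = 0.183), Cebpb at -0.60 ± 0.16 (limma adjusted p = 0.187) and Hnf4a at -0.35 ± 0.14 (limma adjusted p = 0.363). Atf4, which drives amino acid synthesis and uptake genes, stood at 0.31 ± 0.11 (limma adjusted p = 0.324). With 1 array left out, Klf15 passed in 2 of 6 fits (without the first luciferase or the second Nfkbiz array), Foxo3 in 1 of 6 (without the third Nfkbiz array) and Ppargc1a in 0 of 6, where its limma adjusted p ran from 0.0691 to 0.202. Ppargc1a also missed the threshold after quantile normalization (limma adjusted p = 0.0578) and cyclic loess (limma adjusted p = 0.0584), without a filter, and with averaged or most variable probe sets, and passed in 4 of 17 alternatives in all. Klf15 missed it after median centring (limma adjusted p = 0.0741) and with the most variable probe set (limma adjusted p = 0.0633), and all 3 missed it without the variance trend. Their differences stayed negative under every alternative that read them, at most -1.28 for Klf15, -1.17 for Foxo3 and -1.04 for Ppargc1a.

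Of 52 other enzymes of amino acid metabolism, 45 were tested and 0 passed in limma after adjustment, with 1 lower and 3 higher at an unadjusted p below 0.05 (7.00% and 5.03% of all genes) and a median of 0.01. The share higher is near that of all genes and the share lower is under it, so the 4 genes named next are a description. Ddc, the aromatic amino acid decarboxylase, read 1619, 2630 and 1965 on the luciferase and 2989, 4327 and 3628 on the Nfkbiz arrays. The groups did not overlap and the difference was 0.83 ± 0.19, opposite in sign to Tat (limma adjusted p = 0.163). Gatm, of creatine synthesis, stood at 0.60 ± 0.22, Psph, of serine synthesis, at 0.73 ± 0.27, and Suox, the sulfite oxidase, at -0.39 ± 0.15.

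**Figure D5:**
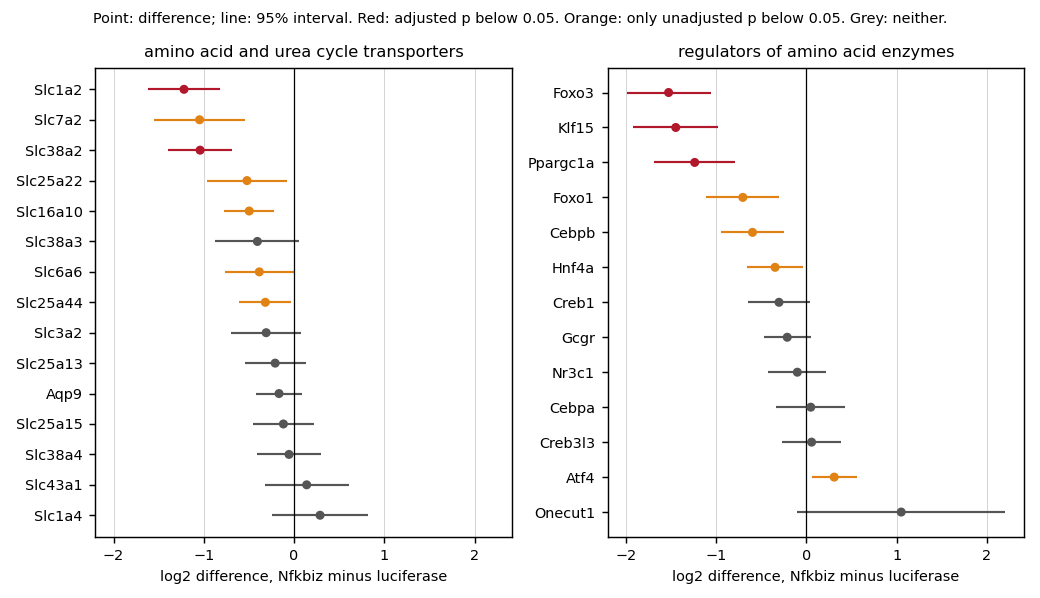
Log2 difference (point) and 95% interval (line) of 15 transporters (left) and 13 regulators (right), AAV8-Nfkbiz minus AAV8-luciferase. With all 6 arrays Slc1a2, Slc38a2, Foxo3, Klf15 and Ppargc1a are past the adjusted threshold, all below 0, and 13 of the 15 transporters have a negative difference.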

How the data were processed

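Per the submitters' processing notes the authors made the deposited intensities with MAS5, whose version the sources used here do not give, 1 value per probe set and array on a linear scale. Per the labels' protocols, labelled cRNA came from 100 ng of total RNA. Of 45037 probe sets, 34945 had 1 gene symbol in the platform annotation, 932 had several and 9160 were not listed; 34741 matched RefSeq by Entrez identifier, with 0 symbols changed. Each gene was read by its brightest probe set (mean log2 over the 6 arrays), and the lowest 40% of probe sets (below 47.4) were left out. Log2 intensities, with no pseudocount or further normalization, were fitted with limma 3.58.1 in R 4.3.3 (lmFit, eBayes with an intensity trend), two-sided, with Benjamini-Hochberg adjustment over all genes, or over all probe sets where stated. The number of arrays limits the precision, and with 3 against 3 an exact permutation test cannot go below 0.1. The procedure was tested on simulated data with the means and spread of all 13312 genes tested and independent noise, without array-wide shifts. Of 200 genes drawn at random from them and changed by a log2 of 1, 40% were recovered on average, and 78.4% at a log2 of 2. Recovery among genes as bright as the listed ones was not measured. False calls made up 4.52% and 3.44% of the calls.

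The genes and lists were chosen with earlier results of these data known. Array values are given for genes past the adjusted threshold or at an unadjusted p below 0.05, otherwise for the gene of smallest p in each pathway, and always for Cps1, Tat and Agxt (and Sds and Gls2, not analysed here); of the other lists, genes past the threshold and up to 4 of smallest p are named. Others named were chosen after their values were seen. Alternatives were other normalizations, pseudocount, filters, variance prior, array weights, probe set rules, a replicate block and leaving out each array. Figures used matplotlib 3.10.9 in Python 3.11.15.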

Additional observations from a re-analysis of the deposited data

How the results depend on the processing

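The number of listed genes past the adjusted threshold, 1 with all arrays, ran from 0 to 2 when 1 array was left out, and was 0 after median centring and without the variance trend. The number lower at an unadjusted p below 0.05, 4 with all arrays, ran from 2 to 5 with 1 array left out, and was 8 after quantile and 7 after cyclic loess normalization and 2 after median centring or without the variance trend. The number higher stayed at 1, and was Csad, under all 17 alternatives. The number without overlap, 5 with all arrays, ran from 5 to 15 with 1 array left out, and was 12 after quantile normalization, 9 after cyclic loess and 2 after median centring. The median difference ran from -0.21 to 0.04 with 1 array left out. Listed probe sets past the threshold, 1 with all arrays, ran from 0 to 2 with 1 array left out, and were 0 with the replicate block, after median centring, without a filter and without the variance trend. Over all genes 30 passed, 8 to 19 with 1 array left out, 0 without the variance trend, 62 with array weights, 18 when probe sets of a gene were averaged and 10 when the most variable one stood for it. The cause of these shifts was not tested. Fits that leave an array out also rest on fewer arrays, which was not separated from which array was dropped. Of the 12 listed genes refitted singly under each alternative (Tat, Prodh, Gpt, Uroc1, Csad, Ass1, Cps1, Agxt, Gcsh, Kmo, Cbs and Ivd), 3 differences changed sign, each with 1 array left out: Agxt (-0.042 to 0.28, negative without the second Nfkbiz array), Cps1 (-0.19 to 0.0089, positive without the third Nfkbiz array) and Kmo (-0.20 to 0.0036, positive without the third luciferase array). Tat kept its sign under all 17 alternatives, between -1.30 and -1.05, and passed in 12 of them.

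The arrays share replicate numbers across groups, and same-numbered arrays did not deviate together (r of -0.06, 0.07 and -0.03 across genes for numbers 1, 2 and 3). The first luciferase array correlated best with the third Nfkbiz array (0.15). With the replicate number as a block, 27 genes passed against 30, Tat among them, and 3 listed genes were lower at an unadjusted p below 0.05 against 4, Uroc1 dropping out. Among the carriers and regulators, Slc1a2 (limma adjusted p = 0.0632) and Ppargc1a (limma adjusted p = 0.0881) lost their calls under the block, and Slc38a2, Klf15 and Foxo3 did not.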
